A study of Mus musculus with 10 samples.

Results

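Macrophages of fat tissue were followed here through 38 genes that mark them, chosen by name as a list of resident and lipid-associated macrophage genes, out of 52636 gene identifiers in the count table. All 38 were found and all 38 passed the filter on low counts, as did 15927 genes in all. C57BL/6 mice aged 6 months were kept on a 65% high-fat diet, and RNA was taken from their inguinal white fat, which lies under the skin. The 5 knockout libraries are labelled adipose Tcf7l2 KO, and their mice carried floxed TCF7L2 alleles (F/F) together with Adp-Cre. The 5 control libraries are labelled wild type, but their titles carry F/F, so both groups share the floxed alleles and differ in the Cre by these labels. The deletion is directed to fat cells, whereas the tissue measured also holds macrophages, vessels and other cells in which the labels state no deletion.

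Macrophages of fat clear dead cells and take up lipid that fat cells release. Resident ones are known for scavenger and lectin receptors such as those encoded by Mrc1 and Cd163. In obesity, lipid-associated macrophages gather around dying fat cells and carry Trem2, a lipid-sensing receptor that signals through the adaptor encoded by Tyrobp, with genes of the lysosome and of lipid breakdown. Survival of tissue macrophages depends on the receptor encoded by Csf1r and its ligands, the products of Csf1 and Il34. Tcf7l2 encodes a transcription factor of the Wnt pathway that binds DNA at the TCF/LEF motif.

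The macrophage genes were nearly level between the groups. At an adjusted p below 0.05 in edgeR's quasi-likelihood test, 1 of the 38 genes, Marco, was higher in knockout fat and 0 were lower, against 12.9% of all genes tested (5.84% higher and 7.05% lower). That is 2.63% of the list, and the difference between the shares was not tested. At an unadjusted p below 0.05 there were 4 genes, all higher in knockout fat (Marco, Retnla, Tyrobp and Timd4). Over all 15927 genes tested, 4930 lay below that p in either direction. DESeq2 called 2 higher, Marco and Retnla, and 0 lower, against 1409 higher and 1270 lower of the 17528 genes it tested. The median log2 fold change of the 38 genes was 0.00, with 20 positive and 18 negative, and the median over all genes tested was also 0.00.

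Promoters of 5 genes are shown because 1 of them, Marco, is the called gene, and the other 4 are examples with a TCF/LEF core or the AP-1 motif from the lipid-associated and resident sets compared further on. Folr2, of the resident set, also holds both motifs but has 2 windows in the table and is not shown. Sequences run 5′ to 3′ along the gene's strand, from 250 bases before its start to 50 after, from RefSeq on GRCm38.p6. Capitals mark a TCF/LEF core, CTTTGNT, or an AP-1 motif, TGANTCA, on either strand. Marco lies at chr1:120504975-120505274 on the minus strand, Trem2 at chr17:48346151-48346450, Gpnmb at chr6:49036268-49036567, Mrc1 at chr2:14229164-14229463 and Cd163 at chr6:124304401-124304700, the last 4 on the plus strand.
Marco: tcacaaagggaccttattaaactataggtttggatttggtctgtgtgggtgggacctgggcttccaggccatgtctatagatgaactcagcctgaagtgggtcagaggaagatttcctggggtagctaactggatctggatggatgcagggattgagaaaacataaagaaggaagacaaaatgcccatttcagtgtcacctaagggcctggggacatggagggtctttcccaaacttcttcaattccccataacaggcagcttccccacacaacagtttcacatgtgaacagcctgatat
Trem2: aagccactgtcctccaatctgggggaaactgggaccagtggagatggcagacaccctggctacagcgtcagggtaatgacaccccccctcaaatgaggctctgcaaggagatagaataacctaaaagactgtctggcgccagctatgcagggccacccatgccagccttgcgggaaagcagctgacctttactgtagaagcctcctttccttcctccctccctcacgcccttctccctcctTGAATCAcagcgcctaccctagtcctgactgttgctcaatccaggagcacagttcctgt
Gpnmb: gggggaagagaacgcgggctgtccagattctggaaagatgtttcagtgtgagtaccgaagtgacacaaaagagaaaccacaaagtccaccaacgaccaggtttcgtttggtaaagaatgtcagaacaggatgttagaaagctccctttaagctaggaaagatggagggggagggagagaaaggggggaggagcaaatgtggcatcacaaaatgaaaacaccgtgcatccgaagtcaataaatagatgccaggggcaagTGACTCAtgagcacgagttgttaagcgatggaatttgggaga
Mrc1: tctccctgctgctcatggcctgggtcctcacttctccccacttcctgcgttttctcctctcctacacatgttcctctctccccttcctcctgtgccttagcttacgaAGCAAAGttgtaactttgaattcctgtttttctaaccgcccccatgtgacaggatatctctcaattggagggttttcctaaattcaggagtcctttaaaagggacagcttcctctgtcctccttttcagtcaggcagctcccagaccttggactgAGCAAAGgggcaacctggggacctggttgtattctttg
Cd163: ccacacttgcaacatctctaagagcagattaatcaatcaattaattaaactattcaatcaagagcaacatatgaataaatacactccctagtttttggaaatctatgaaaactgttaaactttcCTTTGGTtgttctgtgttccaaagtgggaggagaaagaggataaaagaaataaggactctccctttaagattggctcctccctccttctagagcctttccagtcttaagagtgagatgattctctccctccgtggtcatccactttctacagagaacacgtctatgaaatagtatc

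The window of Marco held neither motif. Mrc1 had 2 TCF/LEF cores on the opposite strand, which begin at bases 108 and 263 of the window, and Cd163 had 1, at base 125. Trem2 and Gpnmb each had 1 AP-1 motif, at bases 242 and 259. The promoter table held 30 of the 38 genes, in 34 windows of 300 bases. A TCF/LEF core stood in 17.6% of those windows (Cd163, Cd5l, Ctsd, Folr2, Mmp12 and Mrc1), against 18.6% of all 32851 windows. The AP-1 motif stood in 23.5% of them (Cd68, Cd84, Cybb, Folr2, Gpnmb, Itgax, Mmp12 and Trem2), against 7.81% of all windows. An ETS motif of the type bound by the macrophage factor PU.1, GAGGAAGT on either strand, stood in 14.7% (C1qc, Ctss, Mmp12, Retnla and Spp1), against 3.20% of all windows. A CLEAR-type E-box, TCACGTGA, stood in that of Ctsd and an M-box, TCACATGA, in those of Ctss and Mmp12, against 0.974% and 0.986% of all windows. These matches are letters in a window and were not tested against the list's makeup.

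Tcf7l2 itself, measured to check the labels, had 5.57, 6.14, 6.20, 5.58 and 5.68 CPM (read counts divided by library depth and scaled by TMM factors) in knockout 1 to 5, against 11.1, 10.5, 9.16, 11.4 and 11.1 CPM in control 1 to 5. The groups did not overlap. The log2 fold change was -0.87 ± 0.096 (SE, n = 5 per group), with an exact permutation p of 0.0079, the smallest that 5 libraries against 5 can give. Library totals ran from 15010152 to 17047144 counts in knockouts and from 14032866 to 17782073 in controls. Knockout 1 stood apart by a mean log2 CPM of T and B cell markers of 4.50, against 1.06 to 2.17 in the other knockouts and 0.683 to 1.15 in controls. Control 5 lay at -5.99 on the leading principal component, computed over 500 genes of high variance, inside the knockout range of -35.6 to -3.96, while the other controls lay between 12.0 and 22.7. A mean log2 CPM of 903 intronic-type loci ran from 0.218 to 0.598 in knockouts and from 0.507 to 1.28 in controls. These loci are single-exon genes with Gm or Rik names, neither protein-coding nor pseudogenes. Whether they lie in introns was not checked. Skeletal muscle markers summed to 641, 133, 523, 59.3 and 63.6 CPM in knockout 1 to 5, against 64.8, 62.6, 58.3, 103 and 510 CPM in control 1 to 5. The labels do not say that each library came from a separate mouse, so the p-values cover the spread among these libraries, which may be technical.

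Genes of macrophage identity were read as a guide to macrophage RNA in the fat, though some are shared with other leukocytes. Adgre1, which encodes the macrophage surface receptor F4/80, had 165, 203, 217, 215 and 208 CPM in knockout 1 to 5, against 213, 212, 192, 247 and 228 CPM in control 1 to 5. Knockout 1 was the lowest library and control 4 the highest, and the other values of both groups overlapped. The log2 fold change was -0.12 (95% interval -0.30 to 0.07, adjusted p = 0.38). Cd68, a lysosomal glycoprotein gene, had 105, 109, 135, 159 and 140 CPM in knockouts, against 125, 129, 138, 133 and 126 CPM in controls. Both the lowest and the highest library were knockouts, and the log2 fold change was -0.01 (-0.23 to 0.21). Csf1r, the receptor gene for the growth factors CSF1 and IL-34, had 246, 264, 270, 265 and 247 CPM in knockouts, against 269, 292, 250, 289 and 297 CPM in controls. Controls 2, 4 and 5 lay above all knockouts, and controls 1 and 3 lay within their range. Its log2 fold change of -0.11 (-0.25 to 0.02) did not pass the test (adjusted p = 0.245). A gene on the opposite strand covers 15.1% of the exonic bases of Csf1r. In bulk tissue, fewer macrophages and less RNA of a gene per macrophage cannot be told apart.

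The other 6 identity genes had log2 fold changes between -0.17 and 0.16 and did not pass the test. They are Itgam and Itgax, which encode integrin chains of myeloid cells, Lyz2 (lysozyme), Mpeg1 (the pore-forming perforin-2), Laptm5 (a lysosomal membrane protein of leukocytes) and Cd84 (a receptor of the SLAM family). Lyz2 was the most abundant of the 38 per length, at 783 CPM per kb of exon in knockouts and 747 in controls, though it has a close copy in the genome, Lyz1, with which it may share reads. Another gene of the annotation covers 68.7% of the exonic bases of Itgam, which had 18.4 ± 2.11 CPM in knockouts and 20.7 ± 6.00 CPM in controls (SD, n = 5 each), so its counts are uncertain.

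Tyrobp, the adaptor that carries the signal of Trem2, had 125, 129, 131, 147 and 137 CPM in knockouts, against 111, 109.6, 119.9, 139 and 105 CPM in controls. Control 4 lay within the knockout range and the other 4 controls lay below it. Its log2 fold change was 0.19 (0.02 to 0.36), with an unadjusted p of 0.0311 and an adjusted p of 0.121. Without control 4 it was 0.26, and the adjusted p was 0.0452. Fcer1g, a related adaptor, and Fcgr1, an antibody receptor that uses it, had log2 fold changes of 0.01 and -0.03. Clec7a, the receptor for fungal beta-glucan known as Dectin-1, had 53.8 ± 12.4 CPM in knockouts and 45.9 ± 3.13 CPM in controls (log2 fold change 0.23, -0.05 to 0.51).

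**Figure D1:**
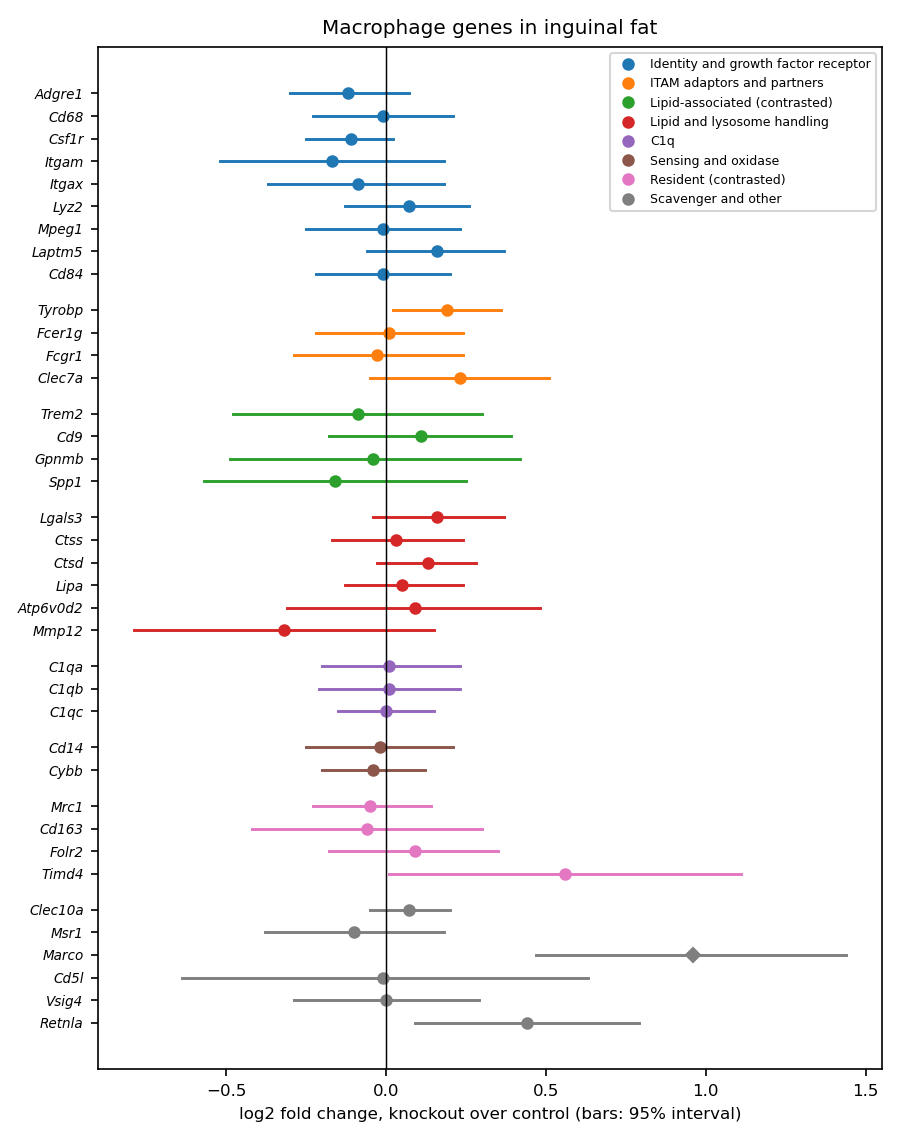
Log2 fold change, knockout over control, of the 38 macrophage genes in inguinal fat (x axis; points, with bars for the 95% interval from edgeR), grouped by role down the y axis. The diamond is Marco at 0.96, the only gene past the threshold, and most other points sit close to 0, between -0.32 (Mmp12) and 0.56 (Timd4).

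The lipid-associated genes did not differ by the test. Trem2 had 36.5, 40.5, 48.8, 64.1 and 50.7 CPM in knockouts, against 49.8, 52.4, 56.7, 66.2 and 31.1 CPM in controls. The lowest library was control 5 and the highest control 4, with the knockouts between them (log2 fold change -0.09, -0.48 to 0.30, adjusted p = 0.773). Cd9, a tetraspanin gene also used by other cells, had 46.6, 47.4, 54.9, 75.9 and 64.5 CPM in knockouts, against 46.8, 49.98, 52.4, 55.4 and 63.8 CPM in controls. Knockout 4 was the highest and the rest overlapped (0.11, -0.18 to 0.39, adjusted p = 0.61).

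Gpnmb, a glycoprotein gene of stressed lysosomes, had 124, 208, 204, 346 and 235 CPM in knockouts, against 219, 249.7, 259.6, 247 and 169 CPM in controls. The lowest and the highest of the 10 libraries were knockout 1 and knockout 4, a 2.79-fold range within the group (log2 fold change -0.04, -0.49 to 0.42, adjusted p = 0.929). Spp1, which encodes the secreted protein osteopontin, had 6.84, 6.87, 7.92, 11.9 and 11.2 CPM in knockouts, against 9.88, 10.1, 11.8, 11.3 and 6.74 CPM in controls. Knockouts 1, 2 and 3 and control 5 were low and the rest high (-0.16, -0.57 to 0.25, adjusted p = 0.609). Another gene covers 18.8% of the exonic bases of Spp1, and a gene on the opposite strand covers 10.7% of those of Cd9.

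The resident genes did not pass the test either. Mrc1, the mannose receptor gene, had 529, 505, 514, 528 and 529 CPM in knockouts, against 485, 530.5, 469, 543 and 662 CPM in controls. The knockouts were close together and control 5 was the highest (log2 fold change -0.05, -0.23 to 0.14, adjusted p = 0.751). Cd163, the receptor gene for haemoglobin bound to haptoglobin, had 103, 193, 147, 171 and 179 CPM in knockouts, against 133, 223, 156, 149 and 167 CPM in controls. Knockout 1 was the lowest, control 2 the highest, and the others overlapped (-0.06, -0.42 to 0.30, adjusted p = 0.834).

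Folr2, the folate receptor beta gene, had 26.4, 31.6, 27.4, 39.8 and 35.8 CPM in knockouts, against 30.1, 27.8, 29.7, 26.3 and 37.6 CPM in controls. The groups overlapped over most of their range (log2 fold change 0.09, -0.18 to 0.35, adjusted p = 0.669), and a gene on the opposite strand covers 63.1% of its exonic bases. Timd4, a receptor gene for phosphatidylserine on dying cells, had 10.2, 5.05, 4.75, 4.38 and 3.70 CPM in knockouts, against 3.33, 4.71, 3.14, 4.26 and 3.63 CPM in controls. Knockout 1, the library rich in lymphocyte markers, stood alone above the rest, which overlapped. Its log2 fold change was 0.56 (0.01 to 1.11, adjusted p = 0.151), and without knockout 1 it was 0.24 (adjusted p = 0.319).

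**Figure D2:**
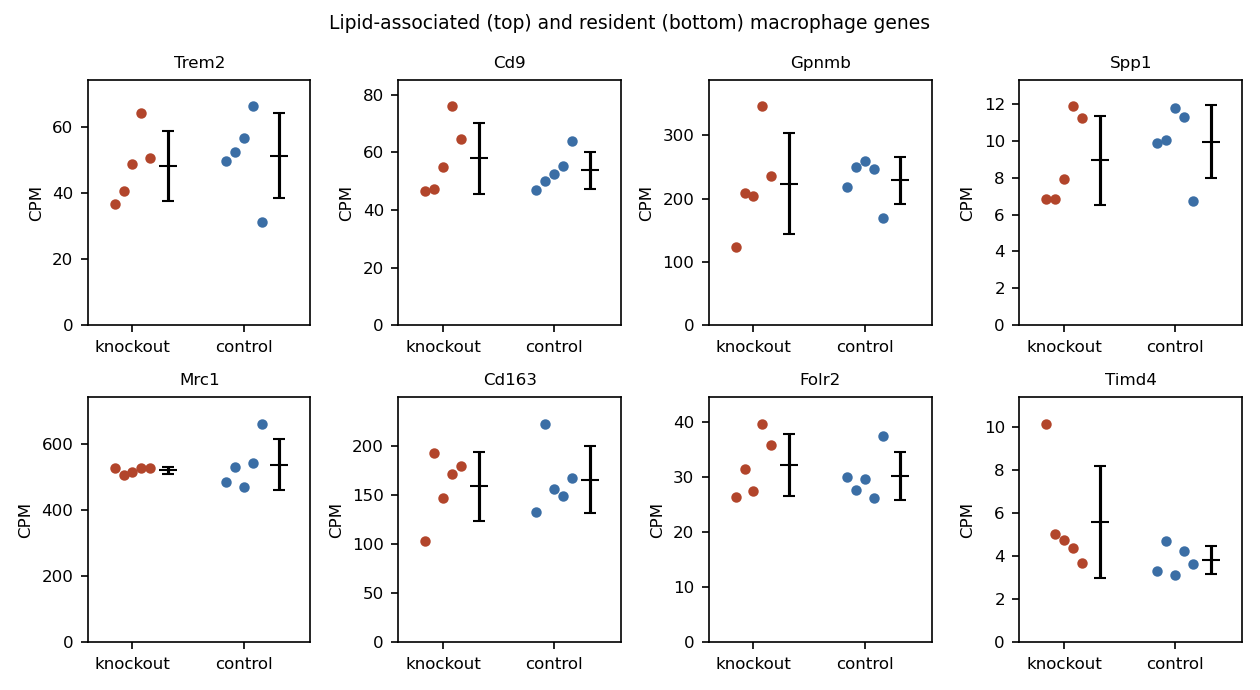
CPM (y axis, from 0) of the 4 lipid-associated genes (top row) and the 4 resident genes (bottom row) in each knockout and control library, with points in the order of replicates 1 to 5 and bars for the mean and SD (n = 5). In each panel the groups overlap. Gpnmb spreads from 124 to 346 CPM among knockouts, and Timd4 has 1 high knockout at 10.2 CPM.

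Set against each other, the mean log2 CPM of the 4 lipid-associated genes minus that of the 4 resident genes was -0.83, -0.63, -0.30, 0.08 and -0.14 in knockout 1 to 5, against -0.10, -0.31, 0.09, 0.04 and -0.69 in control 1 to 5. Knockouts 1 and 2 and control 5 were low, and the others lay closer to 0. The groups averaged -0.36 ± 0.37 in knockouts and -0.19 ± 0.32 in controls (SD, n = 5 each), so the difference of -0.17 was smaller than the pooled SD of 0.34. The lipid-associated mean was 5.57 ± 0.37 in knockouts and 5.63 ± 0.22 in controls, and the resident mean was 5.93 ± 0.07 in knockouts and 5.82 ± 0.15 in controls. Without Timd4 the difference was -0.05, and with a surrogate variable or the lymphoid score as covariate it was 0.06 and 0.03. No test was run on this score, since its genes were chosen with results known.

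**Figure D3:**
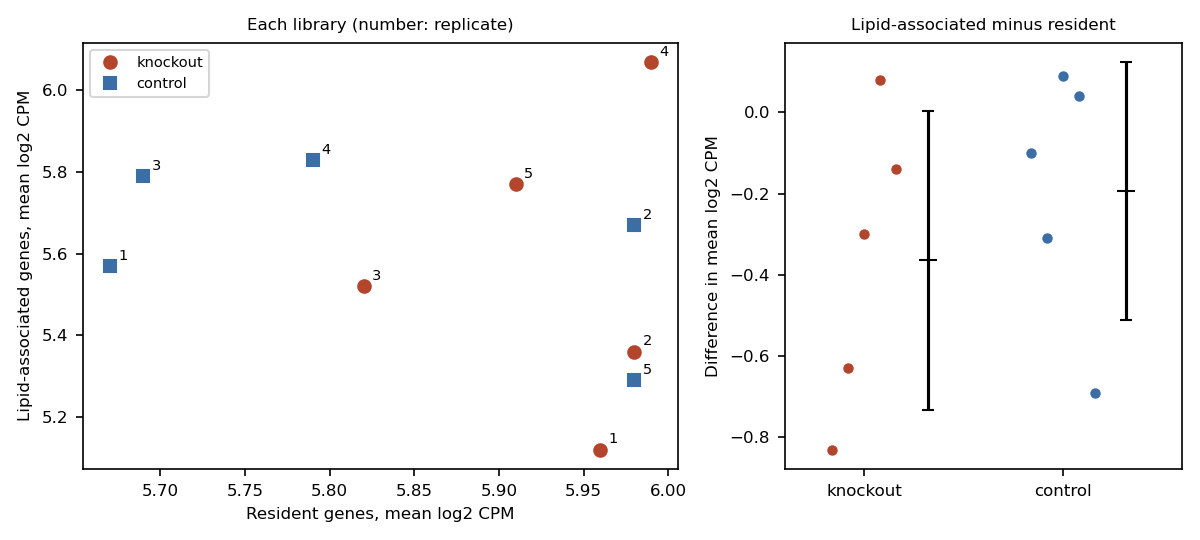
Left, mean log2 CPM of the lipid-associated genes (y axis) against that of the resident genes (x axis) in each library, numbered by replicate. Right, the difference of these means by group, with bars for the mean and SD (n = 5). Knockout 1 (-0.83) and control 5 (-0.69) have the lowest differences, and the groups overlap.

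Among libraries of the same group, the lipid-associated genes varied by more than their differences between the groups. The median SD within groups, on the log2 CPM scale, was 0.354 for the 4 lipid-associated genes and 0.271 for the 4 resident ones, against 0.186 for the 38 genes and 0.172 for all genes tested. Knockout 1 was the lowest of the 10 libraries for 15 of the 38 genes, among them Adgre1, Cd68, Gpnmb, Atp6v0d2 and Mmp12. It was the highest for Marco, Timd4, Cd5l and Laptm5. Knockout 4 was the highest for 15 genes, among them Gpnmb, Cd9, Spp1, Atp6v0d2 and Lipa, and the lowest for 0. Control 5 was the highest for 9, among them Mrc1, C1qa, C1qb and Itgam, and the lowest for 7, among them Trem2, Spp1 and Tyrobp.

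**Figure D4:**
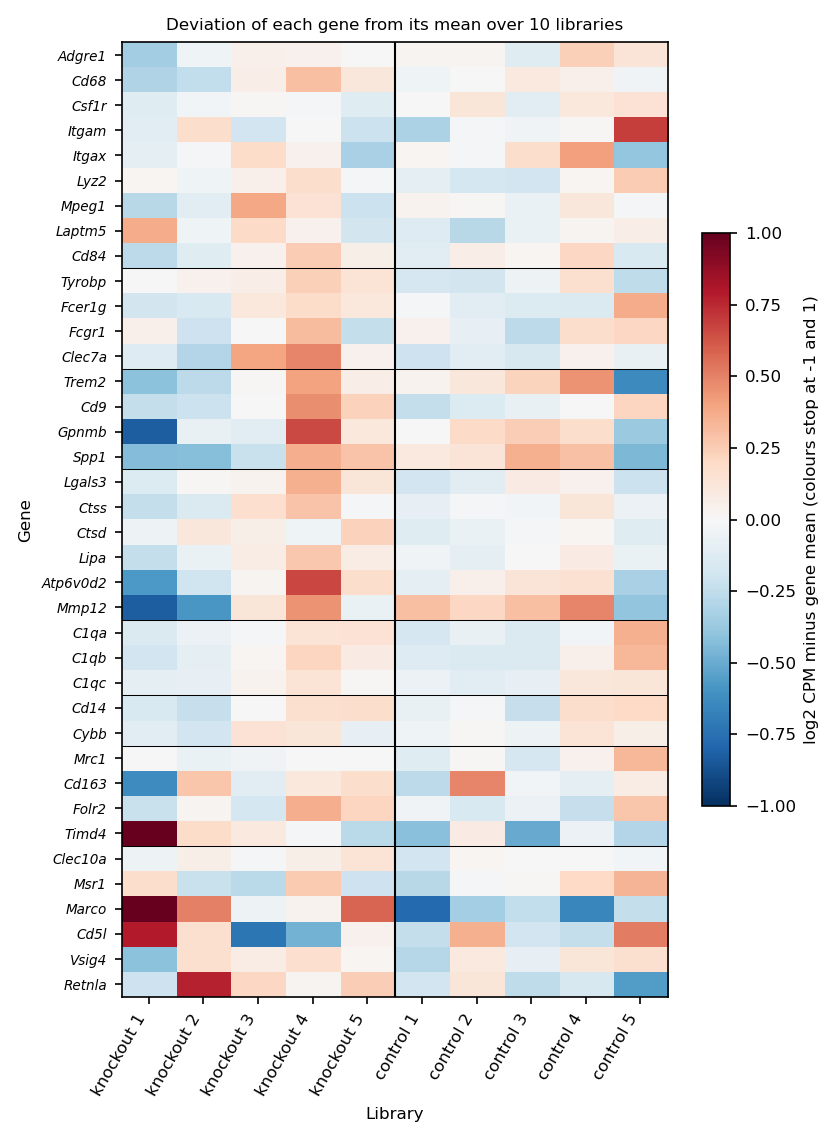
Log2 CPM minus the gene's mean over the 10 libraries, in colour (red above, blue below; colours stop at -1 and 1), for the 38 genes (rows, lines between roles) in knockout 1 to 5 and control 1 to 5 (columns). Knockout 1 is the lowest library for 15 genes and knockout 4 the highest for 15, and Marco is the only row whose groups do not overlap.

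The genes of lipid and lysosome handling did not pass the test. Atp6v0d2, a proton pump subunit gene of macrophage lysosomes, had 51.5 to 122 CPM in knockouts and 61.4 to 85.4 CPM in controls, with both extremes among knockouts (log2 fold change 0.09, -0.31 to 0.48). Mmp12, the macrophage metalloelastase gene, had 88.5 to 215 CPM in knockouts and 119.7 to 220.3 CPM in controls. Its log2 fold change of -0.32 was the lowest of the 38 (-0.79 to 0.15, adjusted p = 0.343). Lgals3 (galectin-3), the cathepsin genes Ctss and Ctsd, and Lipa, the gene of the enzyme that splits cholesterol esters in lysosomes, had log2 fold changes between 0.03 and 0.16. Another gene covers 34.4% of the exonic bases of Ctsd, which had 1384 ± 113 CPM in knockouts and 1268 ± 53.9 CPM in controls.

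The 3 chains of complement C1q had log2 fold changes of 0.01 for C1qa (-0.20 to 0.23), 0.01 for C1qb (-0.21 to 0.23) and 0.00 for C1qc. C1qc had 235 ± 15.8 CPM in knockouts and 235 ± 18.2 CPM in controls, and its 95% interval of -0.15 to 0.15 allows a fold of 0.904 to 1.11. Cd14, which binds bacterial lipopolysaccharide, and Cybb, a subunit of the phagocyte oxidase, had log2 fold changes of -0.02 (-0.25 to 0.21) and -0.04 (-0.20 to 0.12).

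Marco, a scavenger receptor gene of macrophages that bind bacteria and particles, was the gene called. It had 12.1, 7.54, 5.15, 5.44 and 7.94 CPM in knockout 1 to 5, against 3.10, 4.20, 4.49, 3.38 and 4.51 CPM in control 1 to 5. Every knockout was above every control, with knockout 1 the highest, and it was the only one of the 38 genes whose groups did not overlap, against 8.99% of all genes tested. The log2 fold change was 0.96 ± 0.22 (SE, n = 5 per group), a fold of 1.94 with a 95% interval of 1.39 to 2.71 (adjusted p = 0.021). The gene, ENSMUSG00000026390, lies at chr1:120474538-120505024 on the minus strand of GRCm38, counts run over its exons, and no other annotated gene overlaps these. Its counts ran from 50 to 210 per library, above the floor of 3 counts (0.172 to 0.205 CPM).

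Some lymphocyte markers were also higher in knockout fat, by the main group comparison. Of the 11 T cell markers tested 7 were higher in knockouts, with summed levels of 18.1 to 151 CPM in knockouts and 13.9 to 29.5 CPM in controls, and of the 10 B cell markers 4 were higher, with sums of 35.6 to 479 CPM in knockouts and 27.1 to 45.6 CPM in controls. Of all genes tested, 5.84% were higher. DESeq2 called 7 of the T cell and 2 of the B cell markers higher, limma-voom 5 and 0, and edgeR called 8 and 1 without control 5 and knockout 1. Over all genes tested, these 3 fits called 1409 of 17528, 1702 of 15927 and 1769 of 15961 higher. Knockout 1, the library highest in Marco, had the highest sums. In knockout 2 to 5, Marco had 7.54, 5.15, 5.44 and 7.94 CPM. The T cell sums there were 18.1, 39.8, 37.6 and 36.0 CPM, and the B cell sums 39.4, 35.6, 71.7 and 49.8 CPM. How Marco relates to these sums was not tested. Of 8 markers of lymph node stroma and sinuses 3 were tested and 0 passed in edgeR (0 at an unadjusted p below 0.05, 1 higher in DESeq2 and 0 in limma-voom). The list summed to 60.7 to 97.7 CPM in knockouts and 55.6 to 91.7 CPM in controls. Ccl19 and Ccl21a were at 0 in all libraries, and why they were was not tested. Cxcl13 had 23.2, 4.13, 2.44, 3.85 and 6.09 CPM in knockout 1 to 5, against 5.18, 7.07, 2.40, 5.14 and 20.9 CPM in control 1 to 5. Glycam1, a lymph node vessel gene of that list that the filter left out, had 7.93, 0.365, 0, 0.863 and 0.616 CPM in knockout 1 to 5, against 0, 0.127, 0, 0.068 and 0.176 CPM in control 1 to 5, and stood out in knockout 1. Siglec1, of the same list, had 41.0, 44.7, 47.6, 34.7 and 38.8 CPM in knockouts, against 47.5, 41.9, 32.3, 39.5 and 57.4 CPM in controls, so knockout 1 lay among the other knockouts. Cd209b had 24.9, 23.7, 18.4, 20.9 and 22.1 CPM in knockouts, against 18.5, 21.5, 20.3, 18.4 and 13.0 CPM in controls. Madcam1 had at most 0.747 CPM, in knockout 1. Without knockout 1 the log2 fold change of Marco was 0.73 (adjusted p = 0.0201), and with the lymphoid score as covariate it was 0.54 (adjusted p = 0.144). With 1 surrogate variable it was 0.74 (adjusted p = 0.0531), and with the intronic-type score 0.82 (adjusted p = 0.408). Without control 1, 2 or 4 it was 0.88, 0.98 and 0.91, with adjusted p-values of 0.0613, 0.053 and 0.0505. Fewer genes were called over the whole table in those fits: 230 higher and 330 lower, 227 and 310, and 388 and 515, against 930 and 1123 in the main fit.

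Retnla, which encodes a resistin-like protein secreted by alternatively activated macrophages, had 203, 401, 271, 239 and 279 CPM in knockouts, against 205, 256, 197, 210.3 and 159.8 CPM in controls. Knockout 2 was the highest and control 5 the lowest, and knockouts 1 and 4 lay among the controls. The log2 fold change was 0.44 (0.09 to 0.79) and missed the threshold in edgeR (adjusted p = 0.0905), but passed it in DESeq2 (adjusted p = 0.0353), in limma-voom with quality weights (0.047) and in edgeR without knockout 1 (0.0331). It also passed with the lymphoid score as covariate, at 0.75 (adjusted p = 0.0182), but not with the intronic-type score (adjusted p = 0.451). Without knockout 2, its highest library, the log2 fold change was 0.27 (adjusted p = 0.191).

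The remaining genes of the list did not pass the test. Clec10a, a lectin gene of alternatively activated macrophages, and Msr1, the gene of scavenger receptor A, had log2 fold changes of 0.07 (-0.05 to 0.20) and -0.10 (-0.38 to 0.18). Vsig4, a complement receptor gene of resident macrophages, had 7.11 ± 1.07 CPM in knockouts and 7.08 ± 0.866 CPM in controls. Cd5l, which encodes a secreted survival factor of macrophages, was the lowest of the 38 per length, with 11 to 36 counts per library and a log2 fold change of -0.01 (-0.64 to 0.63). Over the whole list, the 95% interval lay inside a 1.5-fold change either way for 33 of the 38 genes and reached past it for Mmp12, Timd4, Marco, Cd5l and Retnla. It lay inside a 2-fold change for 36, all but Timd4 and Marco. A p that misses the threshold does not show that values were equal.

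The ligand genes of the receptor encoded by Csf1r were lower in knockout fat by small amounts, and the calls did not hold in all settings. Csf1 had 48.8, 47.0, 46.0, 47.5 and 43.5 CPM in knockouts, against 55.1, 59.8, 49.3, 51.5 and 55.7 CPM in controls, and Il34 had 9.19, 10.3, 9.24, 10.2 and 8.15 CPM in knockouts, against 11.5, 12.2, 13.0, 11.8 and 10.6 CPM in controls. In both genes every knockout lay below every control, and groups did not overlap, in either direction, for 8.99% of all genes tested. The log2 fold changes were -0.22 ± 0.063 for Csf1 (adjusted p = 0.0388) and -0.32 ± 0.094 for Il34 (adjusted p = 0.0417; SE, n = 5 per group). With 1 library left out, the call held in 3 of 10 fits for Csf1 (without knockout 1, control 3 or control 5), with adjusted p-values up to 0.105. For Il34 it held in 2 of 10 (without knockout 4 or control 5), with adjusted p-values up to 0.102. Both calls held in DESeq2 (adjusted p = 0.0336 for Csf1 and 0.0452 for Il34) and in limma-voom (0.0172 and 0.0178). They also held in edgeR with DESeq2-type size factors (0.0405 and 0.0424) and without control 5 and knockout 1 together (0.0335 and 0.0255). Both were lost with the lymphoid score as covariate (adjusted p = 0.10 and 0.161), with no filter on low counts (0.141 and 0.15), with the intronic-type score (0.547 and 0.56) and with 1 surrogate variable (0.0552 and 0.109). In the settings that lost them, log2 fold changes ran from -0.25 to -0.16 for Csf1 and from -0.3 to -0.24 for Il34. Endothelial markers were lower as well, 7 of the 8 tested, against 7.05% of all genes tested. Their sums were 795 to 906 CPM in knockouts and 956 to 1233 CPM in controls, and their part in the result for Csf1 and Il34 was not tested. In the same list of 14 growth factor and cell-clearance genes tested, Mfge8, a bridging protein gene for uptake of dying cells, was higher (0.43 ± 0.096, adjusted p = 0.0181). With the lymphoid score as covariate the log2 fold change of Mfge8 was 0.47 (adjusted p = 0.051). In that fit 403 of all genes tested were higher and 267 lower, against 930 and 1123 without the covariate.

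**Figure D5:**
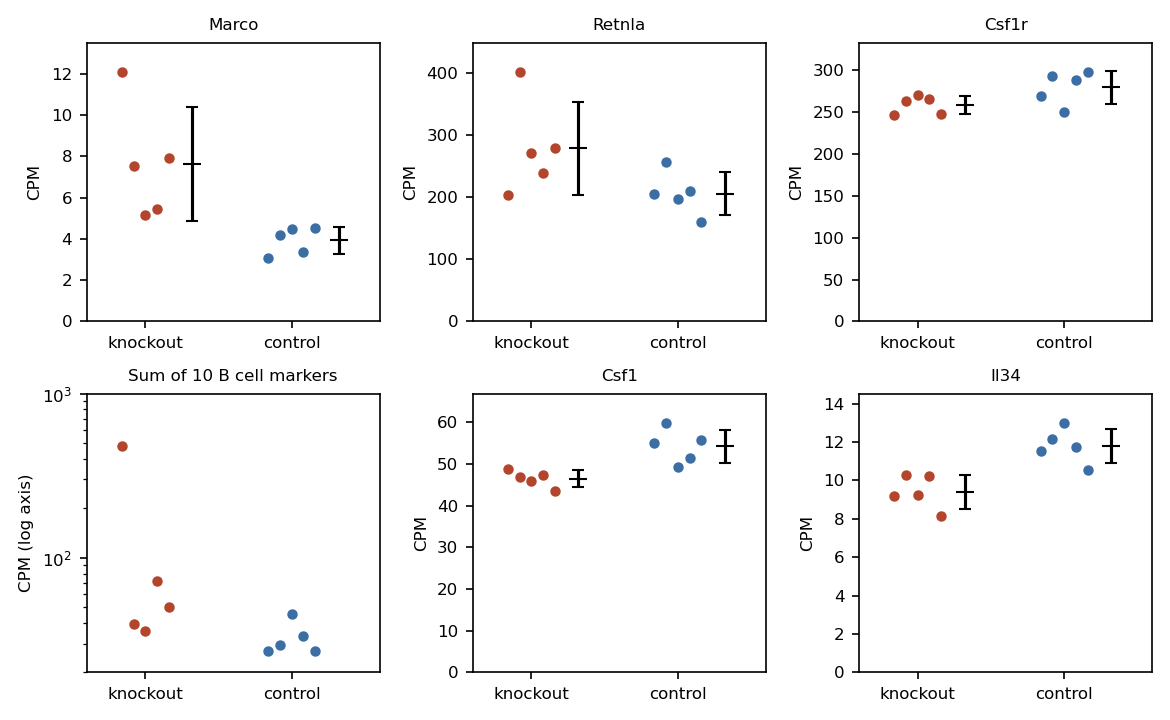
CPM (y axis) of Marco, Retnla, Csf1r, Csf1 and Il34, and the summed CPM of 10 B cell markers on a log axis, in each knockout and control library, with points in the order of replicates 1 to 5 and bars for the mean and SD (n = 5) except on the log axis. Knockout values lie above all controls for Marco and below all controls for Csf1 and Il34, and knockout 1 has the highest B cell sum, at 479 CPM.

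In wider lists of macrophage genes, the share called in both directions ran from 0% to 21.4%, around the 12.9% of all genes tested. It was 4.76% for 42 further myeloid genes, 10.7% for the lipid-associated programme, 15% for the resident programme, 14.8% for lysosome genes, 12.5% for alternative activation, 10% for ITAM signalling, 21.4% for growth factor and cell-clearance genes and 0% for inflammatory mediators. Of the 42 myeloid genes 2 were higher in knockouts and 0 lower (median log2 fold change 0.09): Irf8, a transcription factor gene of monocytes, dendritic cells and B cells, at 0.65 ± 0.14 (adjusted p = 0.0161), and Spi1, which encodes PU.1, at 0.33 ± 0.095 (adjusted p = 0.0414). With the lymphoid score as covariate these became 0.39 (adjusted p = 0.111) and 0.26 (adjusted p = 0.207). Of 28 further genes of the lipid-associated programme 1 was higher, Plin2, a lipid droplet coat gene (0.39 ± 0.098, adjusted p = 0.025). Apoe, an apolipoprotein gene, and Abcg1, a cholesterol exporter gene, were lower, at -0.49 ± 0.10 (adjusted p = 0.0158) and -0.27 ± 0.082 (adjusted p = 0.0484). With the lymphoid score as covariate Plin2 was 0.43 (adjusted p = 0.0663), Apoe -0.53 (adjusted p = 0.0501) and Abcg1 -0.36 (adjusted p = 0.0612). These 3 genes are also used by fat cells and other cells of the tissue.

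Of 20 further genes of the resident programme 2 were higher and 1 lower. Ltc4s, for leukotriene C4 synthesis, changed by 0.32 ± 0.071 (adjusted p = 0.0175) and Hmox1, for haem breakdown, by 0.33 ± 0.094 (adjusted p = 0.0396). Stab1, a scavenger receptor gene of macrophages and some endothelium, changed by -0.21 ± 0.057 (adjusted p = 0.0344). Another gene covers 26.4% of the exonic bases of Ltc4s. With the lymphoid score as covariate Hmox1 was 0.41 (adjusted p = 0.0591) and Stab1 -0.21 (adjusted p = 0.12), so neither passed. Ltc4s still passed in that fit, at 0.42 (adjusted p = 0.0186). Of 27 lysosome genes that every cell uses 3 were higher and 1 lower. Among them the proton pump subunit genes Atp6v0a1 (0.43 ± 0.069, adjusted p = 0.00508) and Atp6v0d1 (0.28 ± 0.07, adjusted p = 0.0248) were higher. Tpp1, a lysosomal peptidase gene, was lower (-0.25 ± 0.054, adjusted p = 0.0161). With the lymphoid score Tpp1 was -0.22 (adjusted p = 0.0903). Atp6v0a1 and Atp6v0d1 still passed in that fit, at 0.41 (adjusted p = 0.03) and 0.35 (adjusted p = 0.0411).

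Of 14 inflammatory mediator genes 0 passed the test in edgeR, with 2 at an unadjusted p below 0.05, both higher, 1 called higher by DESeq2 and 2 by limma-voom. Of 8 genes of alternative activation 1 was higher, Ccl22, a chemokine gene, at 0.69 ± 0.20 (adjusted p = 0.0441). With 1 library left out this call held in 1 of 10 fits, the one without knockout 5. With the lymphoid score Ccl22 was 0.45 (adjusted p = 0.251). Of 20 genes of ITAM signalling, the pathway of Tyrobp and Fcer1g, 2 were higher and 0 lower. They were Hcst, an adaptor gene shared with lymphocytes (0.86 ± 0.22, adjusted p = 0.0269), and Lyn, a kinase gene (0.19 ± 0.054, adjusted p = 0.0414). With the lymphoid score as covariate Hcst was 0.46 (adjusted p = 0.228) and Lyn 0.14 (adjusted p = 0.223).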

How the data were processed

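Total RNA was sequenced with a stranded, ribosome-depleted library kit, per the labels' protocols. The authors deposited whole-number gene counts for 10 libraries, with no normalization. Per the submitters' processing notes, the tools were STAR 2.5.2b, featureCounts 1.5.1 and DESeq2 1.16.0 on GRCm38. Annotation release and strand setting were not given in the sources used here, so reads of overlapping genes may have been counted together. The labels disagree on the time on the diet: 16 weeks (diet), 12 weeks (description) or 4 months (treatment).

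Of 52636 identifiers, 52403 had a GENCODE M21 symbol. Using R 4.3.3, low genes were removed with filterByExpr, libraries were scaled by TMM, and groups were compared with edgeR 4.0.16 (two-sided quasi-likelihood test, no covariate), with Benjamini-Hochberg adjustment over 15927 genes. Fold changes are knockout over control. Log2 CPM uses a prior count of 2. Intervals are 95% t intervals, and the floor of 3 counts covers counting error only. The code was tested on simulated data. Alternatives were DESeq2 1.42.0, limma 3.58.1, sva 3.50.0 for the surrogate variable, other scaling, filter and covariates, and libraries left out.

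The 38 genes, the wider lists and the tests were chosen with earlier results of these data known. All 38 genes are accounted for, with values in each library for the 8 contrasted genes, Adgre1, Cd68, Csf1r, Tyrobp and any gene called, and up to 3 called genes of smallest p are named from each wider list. The values in each library of Retnla, Csf1 and Il34 were added after they were seen.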

Additional observations from a re-analysis of the deposited data

Results flagged for a closer look

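Within a group of 5 libraries, 7 values stood apart from the other 4 by a gap that was large for the group's range, among 114 checks. Chance gives about 1 in 20 groups such a value.

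Knockout 1, the library rich in lymphocyte markers, was flagged for 3 genes. Adgre1 was low there at 165 CPM, against 203 to 217 CPM in the other knockouts. Timd4 was high at 10.2 CPM, against 3.70 to 5.05 CPM, and Irf8 was high at 78.5 CPM, against 47.4 to 55.6 CPM.

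Control 5, which lay among the knockouts on the leading principal component, was high for 3 genes. Itgam had 31.1 CPM there, against 15.4 to 19.4 CPM in the other controls. C1qa had 343 CPM, against 239 to 263 CPM, and Fcer1g had 62.1 CPM, against 43.6 to 47.4 CPM. In control 1, Clec10a was low at 88.4 CPM, against 98.9 to 103 CPM in the other controls.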

How the results depend on the processing

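The count of macrophage genes lower in knockouts was 0 in all 18 alternative settings run on it. The count higher was 1 with DESeq2-type size factors in edgeR. It was 2 (Marco and Retnla) with no filter on low counts, with DESeq2, with limma-voom and without control 5 and knockout 1 together, and 0 with the intronic-type score as covariate. With 1 surrogate variable or the lymphoid score it was 1, and that gene was Retnla. With 1 library left out it ran from 0 (without control 1 or control 2) to 2 (without knockout 1), and without control 4 the gene called was Tyrobp. The cause was not tested.

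Uncalled genes changed sign in several settings, again with no test of the cause. With the surrogate variable, Trem2 was 0.12, Gpnmb 0.23, Spp1 0.07 and Cd163 0.08. With the lymphoid score Trem2 was 0.07, Gpnmb 0.30 and Cd163 0.26. With the intronic-type score Trem2 was 0.31, Gpnmb 0.11, Cd9 -0.09 and Folr2 -0.23. Without control 5 and knockout 1 Gpnmb was 0.03, Mrc1 0.04 and Cd163 0.07. With 1 library left out, Trem2 ran from -0.22 to 0.02, Cd9 from -0.01 to 0.18, Gpnmb from -0.25 to 0.12, Mrc1 from -0.09 to 0.04 and Cd163 from -0.14 to 0.07. Between 0 and 16 of the 38 genes had the other sign, most with the intronic-type score. Among wider lists, DESeq2 called 5 higher and 0 lower of the myeloid genes, 2 and 2 of the lipid-associated programme, 3 and 2 of the resident programme, 4 and 1 of the lysosome genes and 4 and 0 of the ITAM genes. With 1 library left out, calls held in all 10 fits for Irf8 and Atp6v0a1, in 9 for Apoe and Mfge8, in 8 for Ltc4s, Tpp1 and Hcst, in 5 for Plin2 and Atp6v0d1, in 4 for Stab1, in 3 for Spi1 and Lyn and in 2 for Abcg1 and Hmox1. Over all genes tested, the main fit called 930 higher and 1123 lower, DESeq2 1409 and 1270, and limma-voom 1702 and 1903. The counts were 602 and 540 with 1 surrogate variable, 403 and 267 with the lymphoid score, and 13 and 42 with the intronic-type score. With 1 library left out they ran from 227 to 1386 higher and from 310 to 1708 lower. A lost call on 1 gene was not told apart from these shifts over all genes. The lipid-associated minus resident difference ran from -0.29 to -0.05 with 1 library left out.

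No paired analysis was possible because replicate numbers follow record order and the numbers in the titles share no value between the groups. Depth limits Cd5l most, at 11 to 36 counts per library.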
